A study of Mus musculus with 8 samples.

Results

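The genes described here are the 4 Notch receptors of the mouse (Notch1, Notch2, Notch3 and Notch4), the ligands Jag1, Jag2 and Dll4, and the 3 Hey genes (Hey1, Hey2 and Heyl). They were taken by symbol from the 19938 genes with a value, and all 10 were found, each with 1 probe set of its own. The 6 probe sets annotated to Notch4 together with a second gene were left out. Notch receptors are single-pass proteins that are activated by ligands on a neighbouring cell. Cleavage by an ADAM protease and then by gamma-secretase frees the receptor's intracellular part, which enters the nucleus and binds the DNA-binding protein RBPJ and a Mastermind coactivator. The Hey genes are among its direct targets and encode basic helix-loop-helix repressors. In arteries, Notch3 is known as the receptor of smooth muscle cells and Jag1 as a ligand of both endothelium and smooth muscle, whereas Notch4 and Dll4 are known mainly from endothelium.

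The samples were 8 Affymetrix arrays of primary aortic smooth muscle cells from C57Bl6 mice, at passage 3 to 4. The medium of all cultures was DMEM with 10% serum (FCS), and the culture period was 24 h. There were 4 control arrays and 4 of cells given 100 nM jasplakinolide, a sponge compound that stabilises actin filaments, over that time. The labels do not say whether the controls received the solvent, how old the mice were or whether replicates came from separate animals. The p-values therefore speak of array-to-array spread, part or all of which may be technical. Values are log2 expression levels (RMA), on which a difference of 1 is a doubling. Levels of different probe sets are not compared, apart from ranks of brightness, means over gene lists and a cut for dim signal described below. Those uses are rough guides only. The comparison asks how transcripts of these genes differ between cultures with and without the compound.

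All 10 genes had mean levels above the 95th percentile (6.76 log2) of 1027 olfactory receptor genes, which served as a measure of signal from genes that these cells are not known to use. The arrays carried both contractile smooth muscle markers, such as Acta2 (13.41 ± 0.01 log2 in control, SD, n = 4), and endothelial markers, such as Cdh5 (13.17 ± 0.03) and Emcn (13.41 ± 0.04). All 12 markers on each list lay above that percentile, as did 6 of 8 pericyte, 5 of 7 fibroblast and 8 of 8 macrophage markers. The cut is a low one. Pi16, a fibroblast marker just above it at 6.81 log2, stood at percentile 32.2 of mean level among all genes. Most genes therefore lie above the cut, and lying above it does not show that a gene is expressed. Jag2 and Heyl, the dimmest of the 10 genes, stood at percentiles 38.6 and 39.7. In bulk RNA, a change in the number of cells of one kind and a change in the RNA of each cell cannot be told apart.

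The promoters of the genes that the results turn on are shown first, as the 250 bases before the start of transcription (RefSeq, build GRCm38.p6, read on the gene's strand). They are Notch3, Notch4 and Jag1, whose arrays separated by group, and Hey2, whose arrays separated by replicate number. The second match of Hey2 runs past the end of its stretch and is whole in the last line. Capitals mark TGGGAA or its reverse complement TTCCCA, the core letters bound by RBPJ. The last line gives 30 bases centred on the start of Hey2.
Notch3, chr17:32166891-32167140, minus strand: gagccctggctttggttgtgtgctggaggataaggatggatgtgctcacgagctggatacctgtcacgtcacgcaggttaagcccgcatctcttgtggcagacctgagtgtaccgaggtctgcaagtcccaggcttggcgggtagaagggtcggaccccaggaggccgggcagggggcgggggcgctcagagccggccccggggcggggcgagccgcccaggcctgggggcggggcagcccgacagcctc
Notch4, chr17:34564045-34564294, plus strand: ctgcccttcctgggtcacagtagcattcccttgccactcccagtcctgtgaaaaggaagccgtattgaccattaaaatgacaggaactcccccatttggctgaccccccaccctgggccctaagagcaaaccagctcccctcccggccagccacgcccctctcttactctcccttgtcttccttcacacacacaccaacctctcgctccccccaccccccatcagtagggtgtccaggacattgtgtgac
Jag1, chr2:137116521-137116770, minus strand: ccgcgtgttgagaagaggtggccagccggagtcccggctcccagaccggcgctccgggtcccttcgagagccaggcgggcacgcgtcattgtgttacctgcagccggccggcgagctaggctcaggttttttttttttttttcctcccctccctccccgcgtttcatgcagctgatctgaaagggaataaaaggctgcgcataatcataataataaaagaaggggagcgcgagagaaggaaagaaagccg
Hey2, chr10:30842784-30843033, minus strand: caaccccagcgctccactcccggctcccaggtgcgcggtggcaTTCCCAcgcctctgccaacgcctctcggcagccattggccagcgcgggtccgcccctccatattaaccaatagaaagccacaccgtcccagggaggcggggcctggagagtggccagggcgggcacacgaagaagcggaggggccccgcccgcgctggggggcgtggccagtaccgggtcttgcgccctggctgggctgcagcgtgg
Hey2 start, chr10:30842769-30842798, minus strand: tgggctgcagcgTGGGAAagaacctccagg

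Windows of 300 bases (the 250 above and 50 past the start) were searched on both strands for 8 of the 10 genes, all but Hey1 and Heyl. Hey2 was the only one of the 8 to hold TGGGAA, and it held it 2 times, beginning 207 and 3 bases before the start and facing in opposite directions. Of 32851 mouse windows, 25.6% held these letters at least 1 time and 3.79% held them 2 or more times. Both matches in Hey2 were part of the longer GTGGGAA, which 6.38% of windows held and 0.256% held 2 or more times. None of the 8 windows held CACGTG, the E-box letters that Hey proteins can bind (7.15% of all windows), or a CArG box, the site of serum response factor (1.63%). A match is a description of the letters in these windows only.

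None of the 10 genes passed the test between jasplakinolide and control (limma, Benjamini-Hochberg adjusted p under 0.05 over all genes), against 0.772% of all genes (0.436% higher and 0.336% lower). The count was also 0 after median centring (0.787% of all genes), with an intensity trend and robust prior (1.80%), with the olfactory receptor signal in the model (0.873%) and with probe sets averaged per gene (0.782%). Notch3 came nearest, with a mean 1.15-fold lower with jasplakinolide (adjusted p = 0.0815). At an unadjusted p under 0.05 there were 3, namely Notch3 and Notch4 with lower means and Jag1 with a higher one, against 8.87% of all genes. In these 3 the treated arrays lay wholly on one side of the control arrays, which held for 6.91% of all genes (3.62% higher and 3.29% lower). The median log2 difference was 0.01 over the 10 genes and 0.01 over all genes tested. Because the 10 genes were chosen with earlier results of these arrays known, these counts are a description.

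**Figure D1:**
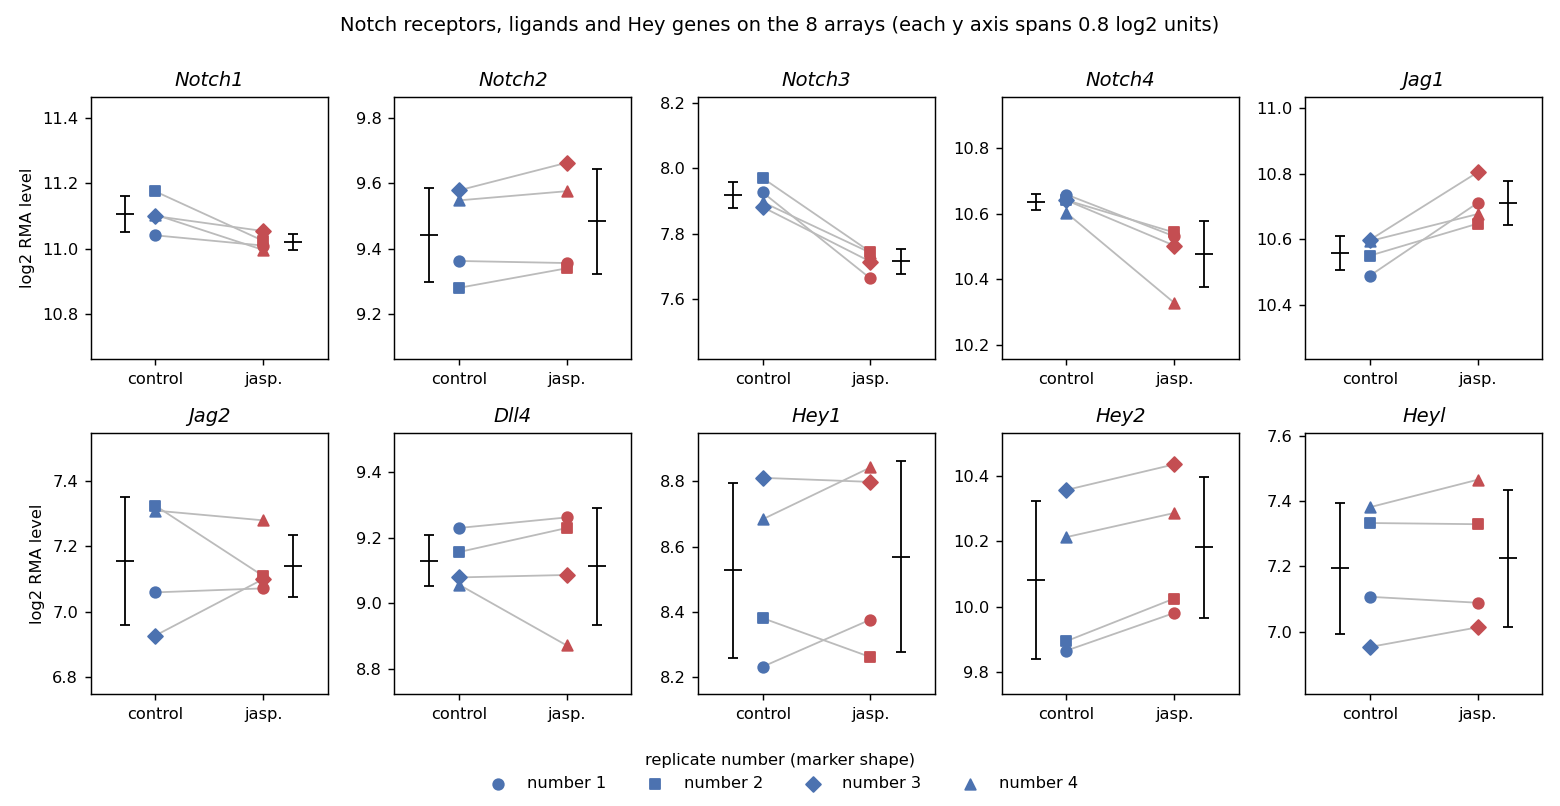
Log2 RMA level (y axis, 0.8 log2 units in each panel) of the 10 genes on the 4 control arrays (blue) and the 4 jasplakinolide arrays (red). Grey lines join arrays of the same replicate number, which also sets the marker shape, and black bars are group means with SD. The groups are apart in Notch3, Notch4 and Jag1, while in Notch2, Hey1 and Hey2 arrays 3 and 4 are high in both groups and in Heyl arrays 2 and 4.

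Among the receptors, Notch3 stood at 7.93, 7.97, 7.88 and 7.90 log2 on control arrays 1 to 4 and at 7.66, 7.74, 7.71 and 7.74 on jasplakinolide arrays 1 to 4. Every treated array was below every control array. The group means were 7.92 ± 0.04 and 7.72 ± 0.04 log2 (SD, n = 4 each). The difference was -0.20 ± 0.04 on the log2 scale (SE), with a 95% interval of -0.30 to -0.11. It passed the threshold when only the brighter 75% of genes were tested (limma adjusted p = 0.0449; 1.54% of those genes passed), after a second quantile normalization (0.0349; 1.48%), after cyclic loess (0.0215; 1.49%) and with array weights (0.0300; 2.29%). With any single array left out it did not pass (adjusted p 0.132 to 0.233), and its difference stayed between -0.21 and -0.18.

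Notch4 stood at 10.66, 10.64, 10.64 and 10.60 log2 on control arrays 1 to 4 and at 10.53, 10.54, 10.50 and 10.33 on jasplakinolide arrays 1 to 4. The controls lay within 0.06 log2 of one another, and jasplakinolide 4 was the lowest of the treated arrays. The difference was -0.16 ± 0.06 log2 (SE; 95% interval -0.28 to -0.04), 1.12-fold lower, and did not pass (limma adjusted p = 0.352). Without jasplakinolide 4 it was -0.11.

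Some endothelial markers had lower values on the same arrays. The differences of Cdh5 (-0.08 log2), Emcn (-0.05), Cldn5 (-0.05) and Erg (-0.01) were small, and Esam (0.01) and Vwf (0.07) had higher means. Of the 12 on the list, 10 had a lower mean with jasplakinolide, 6 had groups that did not overlap, all 6 lower (3.29% of all genes did so), and 1 passed the test (0.336% of all genes were lower), Robo4, a guidance receptor of endothelium (-0.41 ± 0.06, SE; limma adjusted p = 0.0170). With the replicate number as a block 3 passed, all lower, against 1.08% of all genes. Robo4 did not pass without control 3, control 4, jasplakinolide 1 or jasplakinolide 2, each left out alone, which gives a count of 0. The mean log2 level over the 12 markers was 10.79 to 10.83 on the control arrays and 10.59 to 10.70 on the treated arrays. Some fibroblast markers also had lower values, though none passed the test. Of the 7 measured 6 had a lower mean, and 2 had groups that did not overlap, both lower (3.29% of all genes did so). Pdgfra (-0.03 log2) and Lum (-0.06) were near 0, and Pi16 was higher (0.06). The mean of Lum (4.69 log2) lay below the 95th percentile of the olfactory receptor genes. The median log2 difference was -0.22, that of Cd34, whose groups overlapped. The mean level of the 7 was 8.68 to 8.87 log2 in control and 8.52 to 8.60 with jasplakinolide, without overlap. Dcn (decorin, a matrix proteoglycan) differed by -0.54 ± 0.12 log2 (SE; limma adjusted p = 0.0916) and Dpt by -0.46 ± 0.11 (0.120), the latter with a mean below the 95th percentile of the olfactory receptor genes. These fibroblast markers, and the endothelial markers other than Robo4, were named after their values were seen. The part of either list in the Notch4 values was not tested.

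Notch1 and Notch2, the receptors expressed most widely across tissues, had groups that overlapped. Notch1 stood at 11.04, 11.18, 11.10 and 11.10 log2 on the control arrays and at 11.01, 11.02, 11.05 and 11.00 on the treated arrays. Only control 1 lay below a treated array, jasplakinolide 3. The difference was -0.08 ± 0.04 log2 (SE; 95% interval -0.18 to 0.02; limma adjusted p = 0.672), and -0.052 without control 2 and jasplakinolide 4. Notch2 stood at 9.36, 9.28, 9.58 and 9.55 log2 on the control arrays and at 9.36, 9.34, 9.66 and 9.58 on the treated arrays. In both groups arrays 3 and 4 were above arrays 1 and 2. The difference between groups was 0.04 ± 0.09 log2 (SE; 95% interval -0.17 to 0.25; limma adjusted p = 0.962).

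Among the ligands, Jag1 stood at 10.49, 10.55, 10.60 and 10.59 log2 on control arrays 1 to 4 and at 10.71, 10.65, 10.80 and 10.68 on jasplakinolide arrays 1 to 4. Every treated array was above every control array. The means were 10.56 ± 0.05 and 10.71 ± 0.07 log2 (SD, n = 4 each), 1.11-fold higher with jasplakinolide. The difference of 0.15 ± 0.05 log2 (SE; 95% interval 0.04 to 0.27) did not pass the test (limma adjusted p = 0.317).

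Jag2, a second Jagged ligand, and Dll4, the Delta-like ligand of arterial and sprouting endothelium, showed no separation of the groups. Jag2 ranged from 6.93 to 7.32 log2 in control and from 7.07 to 7.28 with jasplakinolide, a difference of -0.01 ± 0.09 (SE; 95% interval -0.23 to 0.20). Dll4 ranged from 9.06 to 9.23 log2 in control and from 8.87 to 9.26 with jasplakinolide, where array 4 was lowest. Its difference was -0.02 ± 0.09 (SE; 95% interval -0.21 to 0.18). For both genes a change of about 0.2 log2 in either direction lies within the interval, so these values do not show that the ligands were equal in the groups.

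The 3 Hey genes had means slightly higher with jasplakinolide and wide spreads within each group. Hey1 stood at 8.23, 8.38, 8.81 and 8.68 log2 on control arrays 1 to 4 and at 8.38, 8.26, 8.80 and 8.84 on jasplakinolide arrays 1 to 4. Hey2 stood at 9.87, 9.89, 10.36 and 10.21 log2 in control and at 9.98, 10.02, 10.43 and 10.29 with jasplakinolide. In both genes and both groups, arrays 3 and 4 were the high ones. Heyl stood at 7.11, 7.33, 6.95 and 7.38 log2 in control and at 7.09, 7.33, 7.01 and 7.47 with jasplakinolide. Here arrays 2 and 4 were the high ones in both groups.

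The differences between groups were 0.04 ± 0.16 log2 for Hey1, 0.10 ± 0.13 for Hey2 and 0.03 ± 0.12 for Heyl (SE), each smaller than its own error. Their limma adjusted p values were 0.974, 0.931 and 0.977. The 95% intervals ran from -0.32 to 0.41 for Hey1, from -0.20 to 0.40 for Hey2 and from -0.24 to 0.30 for Heyl. With the replicate number as a block they were narrower, from -0.10 to 0.18 for Hey1, 0.01 to 0.18 for Hey2 and -0.06 to 0.12 for Heyl. Changes within those limits are not excluded, so these values do not show that the Hey genes were equal in the groups. The signs of Hey1 and Heyl were negative with some single arrays left out, and those of all 3 genes were negative with array weights. Hey2 stayed positive with any single array left out, between 0.015 (without jasplakinolide 3) and 0.19 (without control 3).

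**Figure D2:**
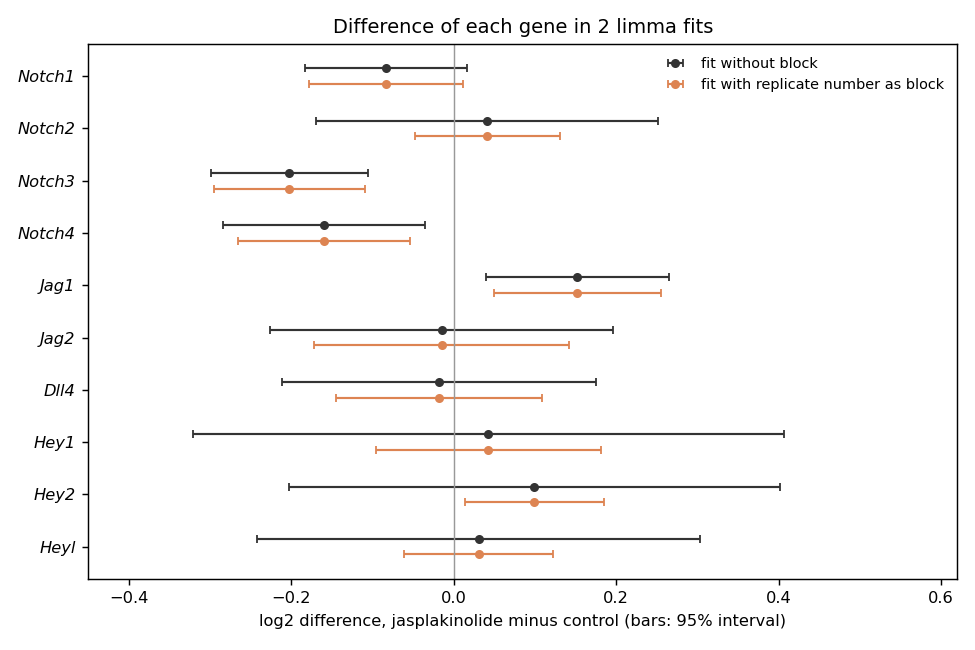
Log2 difference, jasplakinolide minus control (x axis), of each of the 10 genes, with 95% intervals from limma fits without (black) and with (orange) the replicate number as a block. The intervals of Notch3, Notch4 and Jag1 exclude 0 in both fits, those of the Hey genes are the widest without the block, and that of Hey2 excludes 0 only with it, before adjustment over all genes.

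The 2 groups share replicate numbers, and across all genes arrays of the same number deviated together. For each gene, the squared deviations from the group means were split into a part between replicate numbers and a part within them. Arrays unrelated across groups would put 50% between numbers on average, and the median over all genes tested was 71.4%. For Hey2 it was 99.6%, a share exceeded by 0.130% of all genes. Heyl had 98.6% (exceeded by 0.993% of genes), Notch2 98.3% (1.21%) and Hey1 94.4% (6.56%). Dll4 had 82.6% and Jag2 72.9%, while Notch4 (71.0%), Jag1 (63.9%), Notch1 (57.5%) and Notch3 (56.0%) lay below the median gene. High shares were also found outside the 10 genes. The pericyte marker Rgs5 (95.4%), the fibroblast marker Pdpn (94.2%) and Pdgfrb (94.2%) had arrays 3 and 4 high in both groups. Neurl1a (98.8%), a ligand endocytosis gene, had arrays 2 and 4 high, as did Heyl. Other markers had low shares, such as Tagln (4.67%). The genes named here from outside the 10 were chosen after their values were seen. What the numbers stand for (a culture, a day or a processing batch) is not stated in the labels, and the part of each in these values was not tested.

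Set against the treatment, the spread between numbers was large for the Hey genes and Notch2. Within the control group Hey1 spanned 0.58 log2, Hey2 0.49, Heyl 0.43 and Notch2 0.30. The corresponding differences between jasplakinolide and control were 0.04, 0.10, 0.03 and 0.04 log2. Notch3, by contrast, spanned 0.09 log2 in control and differed by 0.20 between the groups.

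**Figure D3:**
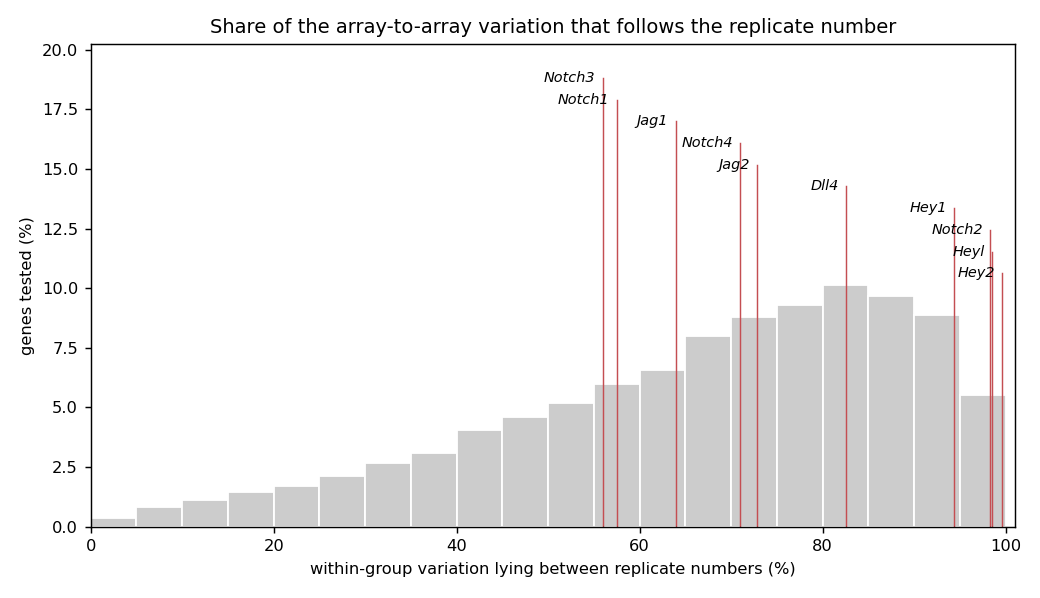
Share of the within-group variation that lies between replicate numbers (x axis, percent) for all 19938 genes (grey bars, y axis, percent of genes) and for each of the 10 genes (red lines). Hey2, Heyl, Notch2 and Hey1 lie at the right edge, from 94.4% to 99.6%, whereas Notch3 and Notch1 lie under 58%. Of all genes, 5.51% lie between 95% and 100% and 8.86% between 90% and 95%. Line heights only separate the names.

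With the replicate number as a block none of the 10 genes passed either (limma, against 1.89% of all genes, 0.813% higher and 1.08% lower), and at an unadjusted p under 0.05 there were 4, the former 3 and Hey2, against 15.1% of all genes. The standard error of Hey2 was 0.13 log2 without the block and 0.04 with it, and the adjusted p with it was 0.263. Taken pair by pair, Hey2 was higher with jasplakinolide by 0.11, 0.13, 0.08 and 0.07 log2 in pairs 1 to 4. Jag1 was higher by 0.22, 0.10, 0.21 and 0.08. Notch3 differed by -0.26, -0.23, -0.17 and -0.15 in the 4 pairs, Notch4 by -0.13, -0.10, -0.14 and -0.27 and Notch1 by -0.03, -0.15, -0.05 and -0.11. These 5 genes kept 1 sign in all 4 pairs, 3 lower and 2 higher, which held for 24.6% of all genes (11.5% lower, 13.0% higher). Hey1, at 0.14, -0.12, -0.01 and 0.16, changed sign between pairs, as did Heyl, Notch2, Jag2 and Dll4.

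Of 60 other genes of the Notch pathway, grouped by role, 56 were measured. None passed (limma, smallest adjusted p = 0.0986), 6 had an unadjusted p under 0.05, 1 higher and 5 lower (against 8.87% of all genes), and 4 (7.14%) had groups that did not overlap, close to the 6.91% of all genes. Their median log2 difference was -0.01, with 27 above and 29 below 0. With the replicate number as a block 1 passed, lower. That is a share close to the 1.89% of all genes (1.08% lower).

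That gene was Neurl1b, a ubiquitin ligase that promotes ligand endocytosis. It stood at 8.74, 8.71, 8.67 and 8.49 log2 on the control arrays and at 8.36, 8.36, 8.45 and 8.31 on the treated arrays, with every treated array below every control. The difference was -0.28 ± 0.06 log2 (SE; 95% interval -0.42 to -0.14), 1.21-fold lower (limma adjusted p = 0.0986, and 0.0499 with the block). It also passed when only the brighter 50% of genes were tested (adjusted p = 0.0414; 2.97% of those genes passed). The gene has 2 probe sets, and their mean differed by -0.21 log2. The 4 other members of that group lay between -0.10 and 0.06.

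In the glycosylation group all 5 members had lower means, and Mfng and Poglut1 had groups that did not overlap (3.29% of all genes did so with lower values). The others in the group were near 0, at -0.023 to -0.015 log2, each smaller than its SE. Mfng, a Fringe sugar transferase that modifies Notch receptors, differed by -0.16 ± 0.06 log2 (SE; limma adjusted p = 0.360), and Poglut1, which adds O-linked glucose to them, by -0.11 ± 0.05 (0.539). Of the 9 receptor-cleavage genes, 6 had lower means, with a median log2 difference of -0.04 (0.01 over all genes). Adam17, a shedding protease, showed the largest difference there, -0.18 ± 0.06 log2 (SE; limma adjusted p = 0.362).

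In the nuclear complex, Maml2, a Mastermind coactivator, stood at 10.67 to 10.77 log2 in control and at 10.81 to 10.87 with jasplakinolide, without overlap. Its difference was 0.13 ± 0.04 log2 (SE; limma adjusted p = 0.326). The gene has 2 probe sets, and their mean differed by 0.069 (limma adjusted p = 0.754). Rbpj itself, named here outside the rule after its values were seen, differed by 0.04 ± 0.06. The 6 measured corepressors lay between -0.06 (Hdac1, a histone deacetylase) and 0.03. Of the 10 genes of receptor turnover 8 had higher means, with a median log2 difference of 0.04 (0.01 over all genes). But the largest difference there was that of Dtx3l, a Deltex-family ubiquitin ligase, at -0.17 ± 0.10 log2 (SE; limma adjusted p = 0.700). It was -0.093 without control 3 and -0.10 with the olfactory receptor signal in the model. Among the 5 other ligands Dll1 had the largest, -0.08 ± 0.07, which was -0.024 without jasplakinolide 3.

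Among the other targets, Nrarp, a Notch-induced inhibitor of the pathway, stood at 10.47, 10.24, 9.93 and 9.95 log2 on control arrays 1 to 4 and at 10.11, 10.09, 9.65 and 9.32 on jasplakinolide arrays 1 to 4. The difference of -0.35 ± 0.19 log2 (SE; limma adjusted p = 0.673) was the largest of the 56 here, but it was -0.19 without jasplakinolide 4, smaller than that of Neurl1b (-0.26) in the same fit, and -0.10 with array weights. Arrays 1 and 2 were the high ones in both groups, the reverse of Hey1 and Hey2, and 90.0% of its within-group variation lay between numbers. Hes1, a bHLH repressor and direct Notch target (named after its values were seen), differed by 0.18 ± 0.08 log2 (SE; limma adjusted p = 0.609), with arrays 3 and 4 high in both groups. All 4 pairs were lower for Nrarp and all 4 were higher for Hes1. Pdgfrb, the PDGF receptor of mural cells (also named after its values were seen), differed by 0.05 ± 0.12 (SE; limma adjusted p = 0.964).

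**Figure D4:**
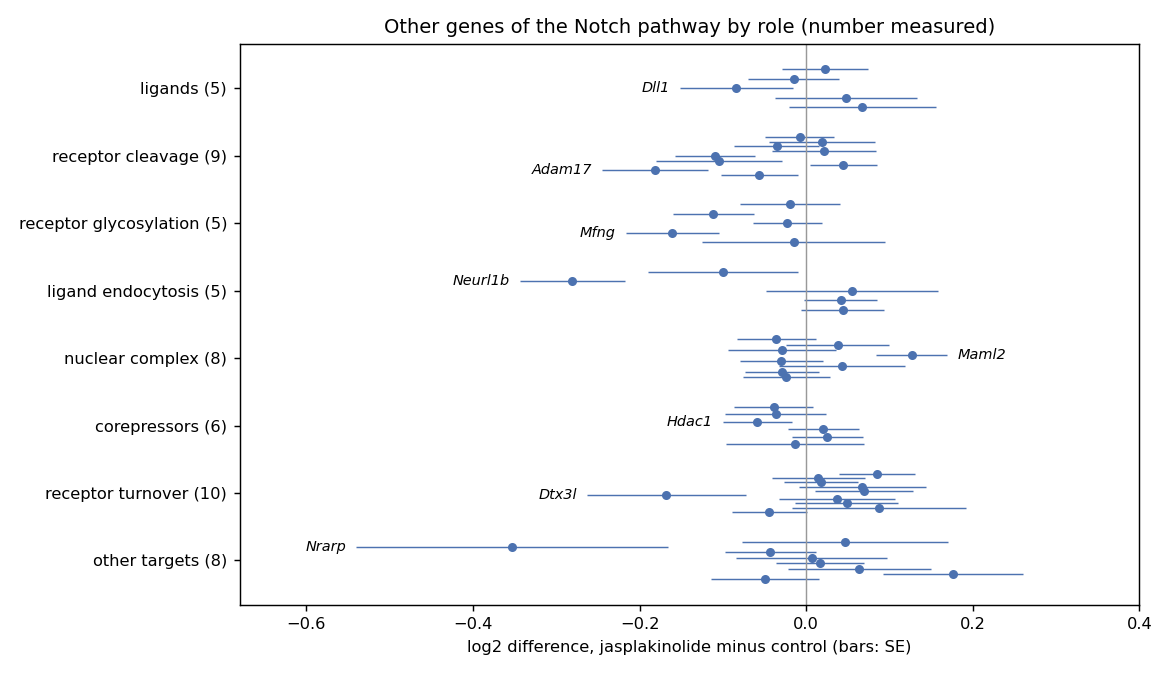
Log2 difference, jasplakinolide minus control (x axis, bars are SE), of the 56 other Notch pathway genes, by role (y axis, number measured). The named gene of each role has its largest difference; Neurl1b (-0.28) and Nrarp (-0.35) lie farthest from 0, and most genes lie within 0.1 of it.

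For the 3 members with the largest differences, the genes with the most similar values over the 8 arrays were listed by Pearson correlation, among all genes tested and as a description only. For Notch3 they were Tecr (r = 0.989), Cgref1 (0.974) and Mns1 (0.967). For Notch4 they were Plat (0.995), which encodes tissue plasminogen activator, Spry3 (0.988) and Gtse1 (0.988). For Jag1 they were Ap3d1 (0.968), Vmn2r1 (0.960) and Egln2 (0.959). Vmn2r1, at 4.57 log2 in control and 4.85 with jasplakinolide, lay within the range of the olfactory receptor genes. Of these 9 genes Cgref1 passed the test, with a difference of -0.37 log2 (limma adjusted p = 0.00825).

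On the same arrays, 8 of the 12 contractile smooth muscle markers passed with higher values and none with lower ones (limma, against 0.436% and 0.336% of all genes). Des, named after its values were seen, had a lower mean (-0.16 log2; limma adjusted p = 0.887). The median log2 difference over the 12 was 0.61. Their mean level was 10.09 to 10.23 log2 in control and 10.70 to 10.94 with jasplakinolide. No measured member of the pericyte, fibroblast or macrophage lists passed (limma). At an unadjusted p under 0.05 there were 1 of 8 (lower), 2 of 7 (both lower) and 3 of 8 (2 higher, 1 lower), against 8.87% of all genes. With the replicate number as a block 0, 1 and 1 passed, both lower, against 1.89% of all genes.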

How the data were processed

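Each of 35556 probe sets has a log2 level per array in the table the authors deposited. The submitters' processing notes name RMA and Affymetrix Expression Console, without versions. Medians of the arrays lay between 7.30 and 7.39. Gene symbols came from the annotation of the platform (21789 probe sets had 1 symbol, 1621 several and 12146 none). Those with 1 symbol were kept, and the probe set with the highest mean stood for its gene.

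The test was limma 3.58.1 (R 4.3.3; lmFit, eBayes, two-sided, 6 residual and 3.43 prior degrees of freedom), with Benjamini-Hochberg adjustment over 19938 genes and no filter on dim genes. An error after a difference is its standard error, and after a mean an SD. Precision is limited by having 4 arrays a group. The code of the fit without the block was tested on simulated data. The simulated arrays had no link between equal replicate numbers, so that test does not cover the block or such a link. Alternatives were the replicate block, brightness filters, other scalings, weights and arrays left out. Same-numbered arrays deviated together (correlations of 0.24 to 0.56 across genes, above 0.1 in all 4 pairs), and on that basis, not on the labels, the numbers were treated as pairs. Arrays of different numbers correlated at -0.62 to 0.52, and control 2 correlated more with jasplakinolide 4 (0.52) than with its own number (0.24).

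The members, lists and alternatives were chosen with earlier results of these data known. Named genes are the members, other pathway genes past the threshold or with the largest difference in their role group, marker genes past the threshold, and the 3 best correlated genes for each of 3 members. Genes outside the rule are marked, apart from other genes whose groups did not overlap and example markers. Promoters are RefSeq's.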

Additional observations from a re-analysis of the deposited data

How the results depend on the processing

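None of the 10 genes passed in the fit reported. The count was 1 (Notch3) with the brighter 75% of genes, a second quantile normalization, cyclic loess or array weights, and 0 under the other alternatives, including the replicate block and each fit with 1 array left out. Among the other pathway genes 1 (Neurl1b) passed with the replicate block or the brighter 50% of genes, and 0 otherwise. The block changed no other call among the members and the other pathway genes. Notch1, Notch3, Notch4 and Jag1 kept their signs throughout.

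Signs near 0 turned. With array weights Notch2 was -0.075, Dll4 0.086, Hey1 -0.16, Hey2 -0.049 and Heyl -0.053 log2. With olfactory receptor signal in the model Dll4 was 0.025 and Heyl -0.044. Without control 2 and jasplakinolide 4 Notch2 was -0.043, Dll4 0.071, Hey1 -0.097 and Heyl -0.0034. With 1 array left out, differences ran from -0.018 to 0.089 for Notch2 (negative without control 2 or jasplakinolide 3), -0.091 to 0.041 for Jag2 (positive without control 2, control 4 or jasplakinolide 1) and -0.068 to 0.062 for Dll4 (positive without control 1 or jasplakinolide 4). They ran from -0.055 to 0.15 for Hey1 (negative without control 1, control 2, jasplakinolide 3 or jasplakinolide 4) and -0.050 to 0.10 for Heyl (negative without control 3, jasplakinolide 2 or jasplakinolide 4). The cause was not tested. Leaving out 1 array unbalances the replicate numbers. Arrays give no read depth, and Notch3, Jag2 and Heyl fell outside the brighter 50% of genes, where they have no value.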
